A study of Mus musculus with 6 samples.

Results

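The genes described here mark the non-blood cells of the bone marrow: reticular stromal cells, the matrix they secrete, osteoblasts and the endothelium of the marrow's blood vessels. They were 38 genes fixed by symbol, all found among the 41128 genes of the table by Ensembl ID, and 31 of them reached a mean of 1 RPM over the libraries and were tested. The mice were of strain background C57BL and received, subcutaneously, either YH250 at 2 mg per kg or the vehicle DMSO. YH250 is a small molecule that the submitters describe as an antagonist acting on p300 and catenin. Marrow was collected 16 h after dosing, and cells negative for lineage markers, CD41 and CD48 and positive for Sca1, c-Kit and CD150 were sorted. The labels call these cells long-term repopulating hematopoietic stem cells, and polyadenylated RNA was sequenced from 3 libraries per treatment, numbered 1 to 3 in each. Age and sex are not given in the sources used here, nor whether a library came from 1 animal or a pool, nor what a replicate number stands for.

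Reticular stromal cells lie along the marrow sinusoids and carry the leptin receptor. They make CXCL12, the chemokine that holds stem cells in the marrow, and stem cell factor, the ligand of c-Kit. The transcription factors EBF3 and FOXC1 maintain this cell state. Sinusoidal endothelial cells form the leaky vessel wall, with the diaphragm protein PLVAP and scavenger receptors of the stabilin family. None of these cells is a blood cell, so their transcripts in a stem cell sort serve as a check for RNA of other cells. The check holds only for genes that blood cells do not transcribe. Blood stem cells themselves transcribe a few endothelial genes, and which of the other members blood cells transcribe was not tested. In bulk libraries, fewer cells of a type and less RNA per cell cannot be told apart.

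The promoter stretches of 3 members whose levels varied between libraries are printed here. Cxcl12 and Lepr are shown because they exceeded every other library by the widest margins in the second YH250 library among the tested members, and Cldn5 because it differed among replicate numbers. Each is the stretch of 250 bases before the first listed transcript start, 5′ to 3′ on the plus strand, from RefSeq on GRCm38.p6. Cxcl12 is at chr6:117168285-117168534, Lepr at chr4:101717157-101717406 and Cldn5 at chr16:18776597-18776846. Capitals mark matches on either strand to any of 7 short motifs. The GC box, a site of Sp1-type factors, was searched as GGGCGG. The core of the site of EBF factors was searched as CCCNNGGG. The TATA box, where the general transcription machinery binds, was searched as TATAAA. The motif of RUNX factors was searched as TGTGGTT and that of forkhead factors, the family of FOXC1, as TGTTTAC. The motif of SOX factors, the family of SOX17 and SOX18, was searched as ACAATGG. The motif of ETS factors, which act in endothelium and blood, was searched as CCGGAAGT.
Cxcl12: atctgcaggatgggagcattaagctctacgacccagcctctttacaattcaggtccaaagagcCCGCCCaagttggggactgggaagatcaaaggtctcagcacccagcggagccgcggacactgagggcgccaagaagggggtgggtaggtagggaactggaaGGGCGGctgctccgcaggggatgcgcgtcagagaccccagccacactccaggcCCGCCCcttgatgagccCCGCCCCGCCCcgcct
Lepr: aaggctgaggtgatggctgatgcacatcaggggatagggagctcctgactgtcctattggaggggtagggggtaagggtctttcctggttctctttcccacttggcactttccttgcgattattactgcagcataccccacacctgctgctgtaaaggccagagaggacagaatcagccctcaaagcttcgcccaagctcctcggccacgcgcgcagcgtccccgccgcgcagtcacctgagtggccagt
Cldn5: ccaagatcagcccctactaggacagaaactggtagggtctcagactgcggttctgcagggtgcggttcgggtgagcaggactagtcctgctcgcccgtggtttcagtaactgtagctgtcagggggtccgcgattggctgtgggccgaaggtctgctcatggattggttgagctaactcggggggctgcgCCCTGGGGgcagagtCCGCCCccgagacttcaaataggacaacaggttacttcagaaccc
Cxcl12 held 5 GC boxes, the last 2 sharing a base, and Cldn5 held 1 EBF core and 1 GC box, while none of the letters searched occurred in the Lepr stretch. A promoter was listed for 25 of the 38 members. GC boxes occurred in 10 of them (40%), against 32.9% of all 27025 promoters searched. The EBF core occurred in 4 (Col4a2, Ebf3, Flt4 and Cldn5; 16%, against 11.7%), the TATA box in 5 (20%, against 13.0%) and the RUNX letters in 3 (12%, against 4.46%). The forkhead, ETS and SOX letters occurred in none, against 3.09%, 2.93% and 3.07% of all promoters. A match is a description of the letters in this window.

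Levels are in RPM, reads scaled to a common total per library after removal of the authors' offset of 1. A gene at 1 RPM rested on about 22.0 to 31.2 reads, and 12716 to 13459 genes reached 1 RPM in a library. The second YH250 library, called YH250 2 here, held the highest level of the 6 libraries for 25.1% of the 13597 tested genes, and DMSO 3 for 22.8%. Blood cell markers differed among replicate numbers: the 10 B cell markers summed to 898 RPM in YH250 3 and 706 RPM in DMSO 3, against 65.6 to 301 RPM in the other 4 libraries.

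Together the 38 members summed to 548, 1056 and 544 RPM in YH250 1, 2 and 3, against 584, 549 and 597 RPM in DMSO 1, 2 and 3. YH250 2 stood apart, and the other 5 libraries lay close together. Much of the sum came from 5 members at 20 RPM or more in every library: Igfbp4, Egfl7, Runx2, Pecam1 and Emcn. The other 33 members summed to 209, 528 and 80.4 RPM in YH250 1, 2 and 3, against 230.3, 148 and 87.9 RPM in DMSO 1, 2 and 3. Without the 5 abundant genes, both libraries numbered 3 were the lowest and YH250 2 the highest. At the other end, Lum and Bglap were listed at 0 in every library, and Col1a1, Col3a1 and Ly6h stayed under 1 RPM throughout. The label of stroma and endothelium is thus carried by part of the list, with the osteocalcin gene Bglap at 0. Of the type I collagen genes, Col1a1 stayed under 1 RPM, while Col1a2 reached 7.48 RPM in YH250 2.

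**Figure D1:**
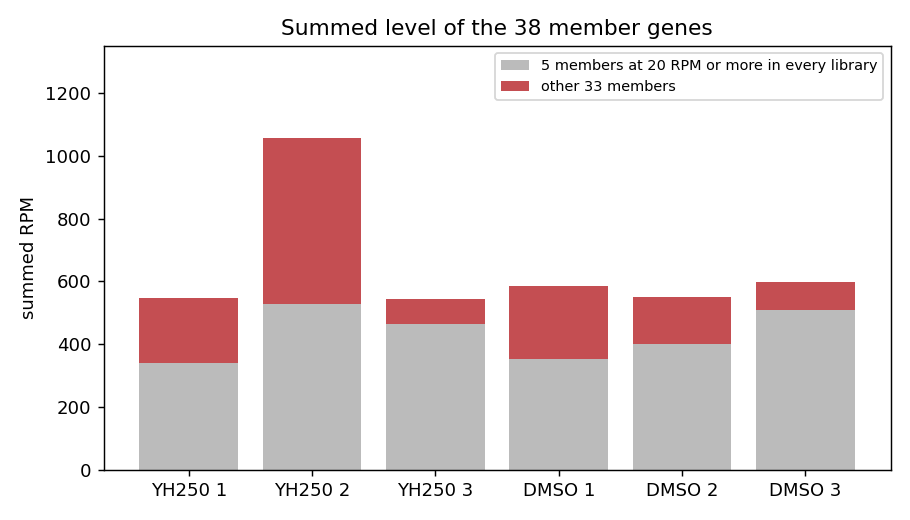
Summed RPM of the 38 member genes by library, split into the 5 members at 20 RPM or more in every library (grey) and the other 33 (red). The red part is 528 RPM in YH250 2 and 80.4 and 87.9 RPM in YH250 3 and DMSO 3.

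**Figure D2:**
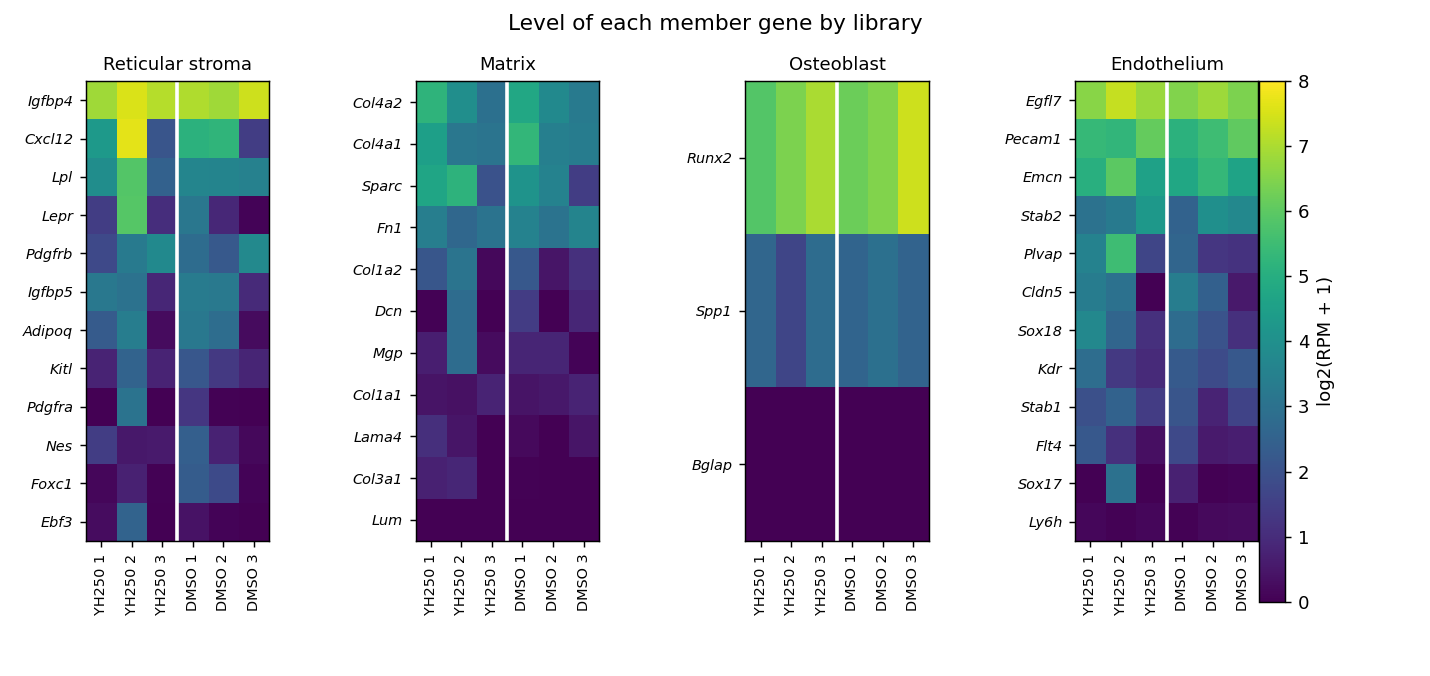
Level of each member gene as log2(RPM + 1), by role and library, with YH250 left and DMSO right of the white line. Igfbp4, Egfl7, Runx2, Pecam1 and Emcn are bright in all 6 libraries, while Lepr, Cxcl12, Lpl and Plvap are brightest in YH250 2.

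The signalling genes of reticular stroma were led by Cxcl12, the niche chemokine (chromosome 6, 117168535 to 117181367), which had 19.1, 202 and 3.29 RPM in YH250 1, 2 and 3, against 34.5, 36.3 and 1.73 RPM in DMSO 1, 2 and 3. It was highest in YH250 2 and lowest in both libraries numbered 3, and the treatments overlapped. Lepr, the leptin receptor that defines these cells (chromosome 4, 101717404 to 101815352), had 1.73, 58.2 and 1.08 RPM in YH250 1, 2 and 3, against 7.99, 0.835 and 0.0455 RPM in DMSO 1, 2 and 3. Only YH250 2 held it above 10 RPM, with DMSO 1 next. Kitl, which encodes stem cell factor, had 0.737, 4.84 and 0.75 RPM in YH250 1, 2 and 3, against 3.53, 1.51 and 0.774 RPM in DMSO 1, 2 and 3. YH250 2 and DMSO 1 were the 2 highest libraries for Kitl as well.

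Lpl, the lipase that frees fatty acids for uptake and is expressed by reticular cells with adipocyte features, had 14.3, 57.4 and 4.65 RPM in YH250 1, 2 and 3, against 11.5, 11.1 and 10.5 RPM in DMSO 1, 2 and 3. The 3 DMSO libraries lay close together, and YH250 2 stood far above all of them. Adipoq, the adipocyte hormone adiponectin, had 3.88, 9.55 and 0.167 RPM in YH250 1, 2 and 3, against 8.21, 6.29 and 0.182 RPM in DMSO 1, 2 and 3. It was near 0 in both libraries numbered 3 and between 3 and 10 RPM elsewhere. Igfbp5, a secreted binding protein of insulin-like growth factors, followed the same split, with 8.11, 7.08 and 0.834 RPM in YH250 1, 2 and 3, against 8.98, 8.42 and 0.956 RPM in DMSO 1, 2 and 3. Its 2 treatments matched closely at each number, and YH250 2 was not the highest.

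Igfbp4, the related binding protein, was the most abundant member at 147 ± 36.8 RPM in YH250 and 138 ± 26.4 RPM in DMSO (SD, n = 3 each), or 32.2 RPM per kb of exon over the 6 libraries. Its libraries ranged from 115 to 187 RPM and YH250 2 was the highest by only 1.12 times the next library on the RPM + 1 scale. The transcription factor gene Ebf3 had 4.84 RPM in YH250 2, against 0 to 0.308 RPM in the other 5 libraries, and its mean of 0.90 RPM was under the minimum for testing. Pdgfra, a growth factor receptor of mesenchymal progenitors, had 7.32 RPM in YH250 2, against 0 to 1.38 RPM in the others. Both genes were thus measurable mainly in that 1 library. Pdgfrb, the receptor shared by stroma and pericytes, went another way, with 2.44, 8.79 and 12.9 RPM in YH250 1, 2 and 3, against 6.14, 3.75 and 12.6 RPM in DMSO 1, 2 and 3. Its highest levels were those of both libraries numbered 3.

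Foxc1, the other transcription factor of the niche, had 0.0962, 0.68 and 0.0417 RPM in YH250 1, 2 and 3, against 3.99, 2.46 and 0.0455 RPM in DMSO 1, 2 and 3. It was the member of lowest fitted difference, yet its level was highest in DMSO 1 and DMSO 2 and near 0 in DMSO 3. Nes, an intermediate filament gene of perivascular stromal cells, was highest in DMSO 1 at 4.34 RPM, with YH250 1 next at 1.73 RPM. The other 4 libraries held 0.137 to 0.699 RPM.

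Matrix genes were split between basement membrane and fibrillar collagen. Col4a1, a chain of the common basement membrane collagen, had 21.8, 8.03 and 7.46 RPM in YH250 1, 2 and 3, against 38.4, 9.93 and 9.33 RPM in DMSO 1, 2 and 3. Col4a2, its partner chain, had 35.7, 14.5 and 6.75 RPM in YH250 1, 2 and 3, against 27.0, 12.9 and 8.74 RPM in DMSO 1, 2 and 3. Both were highest in the libraries numbered 1, and YH250 2 lay within the range of the others. The genes lie head to head on chromosome 8, on opposite strands, and their annotated ends overlap by 22 bases, so reads there could fall to either gene if strand was not used. Sparc, a collagen-binding protein of the matrix (chromosome 11, 55394500 to 55423183), had 25.3, 35.1 and 3.03 RPM in YH250 1, 2 and 3, against 16.3, 10.7 and 1.76 RPM in DMSO 1, 2 and 3. YH250 2 was again the highest, and both libraries numbered 3 were the lowest.

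The fibrillar collagen genes were low. Col1a2 had 3.43, 7.48 and 0.125 RPM in YH250 1, 2 and 3, against 3.65, 0.372 and 1.14 RPM in DMSO 1, 2 and 3, while Col1a1, the other chain of type I collagen, ranged from 0.291 to 0.749 RPM. Per kb of exon the means over 6 libraries were 0.217 RPM for Col1a2 and 0.0742 RPM for Col1a1. Col3a1 reached at most 0.799 RPM. The small proteoglycan gene Dcn had 6.12 RPM in YH250 2, against 0 to 1.69 RPM in the other 5 libraries, and Mgp, an inhibitor of calcification, had 6.12 RPM, against 0.0455 to 0.773 RPM. The related proteoglycan gene Lum was listed at 0 in all 6. Fn1, which encodes fibronectin, had 9.7, 5.38 and 7.35 RPM in YH250 1, 2 and 3, against 10.8, 7.2 and 11.3 RPM in DMSO 1, 2 and 3, with YH250 2 the lowest. Lama4, a laminin chain of vessel walls, reached 1 RPM only in YH250 1, at 1.09 RPM.

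Of the osteoblast genes, Runx2, the transcription factor that starts the bone programme (chromosome 17, 44495987 to 44814797), had 57.3, 85.0 and 124 RPM in YH250 1, 2 and 3, against 73.4, 88.5 and 168 RPM in DMSO 1, 2 and 3. It was abundant in every library and highest in both numbered 3, the reverse of Cxcl12. Spp1, the matrix protein osteopontin, had 5.19, 2.2 and 6.09 RPM in YH250 1, 2 and 3, against 4.91, 6.81 and 4.83 RPM in DMSO 1, 2 and 3, with YH250 2 the lowest of the 6. Bglap, which encodes osteocalcin of mature osteoblasts, was listed at 0 throughout. Which cells gave the Runx2 reads was not tested.

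Endothelial members were led by genes that blood stem cells are also known to transcribe. Egfl7, a secreted vessel protein (chromosome 2, 26580014 to 26593120), had 95.3, 157 and 109.9 RPM in YH250 1, 2 and 3, against 89.1, 112 and 85.5 RPM in DMSO 1, 2 and 3. Pecam1, the adhesion molecule CD31, had 39.8, 37.8 and 67.4 RPM in YH250 1, 2 and 3, against 34.6, 44.7 and 64.5 RPM in DMSO 1, 2 and 3. Emcn, the sialomucin endomucin (chromosome 3, 137341067 to 137432185), had 32.2, 61.7 and 23.1 RPM in YH250 1, 2 and 3, against 26.1, 39.3 and 23.9 RPM in DMSO 1, 2 and 3. YH250 2 held the highest Egfl7 and Emcn, by 1.39 and 1.55 times the next library on the RPM + 1 scale, while Pecam1 was highest in both libraries numbered 3.

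Genes more particular to endothelium were lower and varied more. Plvap, the diaphragm protein of fenestrated vessels (chromosome 8, 71497765 to 71511752), had 10.7, 45.0 and 2.17 RPM in YH250 1, 2 and 3, against 5.07, 1.4 and 1.27 RPM in DMSO 1, 2 and 3. YH250 2 was far the highest and YH250 1 the next. Cldn5, a tight junction protein, had 9.33, 6.88 and 0 RPM in YH250 1, 2 and 3, against 9.4, 4.53 and 0.455 RPM in DMSO 1, 2 and 3. Sox18, a transcription factor of vessel formation, had 12.4, 5.04 and 1.17 RPM in YH250 1, 2 and 3, against 6.06, 3.16 and 1.14 RPM in DMSO 1, 2 and 3. Both were near 0 or 1 RPM in the libraries numbered 3 and highest in those numbered 1. Sox17, the related factor, had 7.0 RPM in YH250 2 and 0 to 0.652 RPM elsewhere.

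The growth factor receptor genes Kdr and Flt4 did not share the gap at YH250 2. Kdr, the main receptor for vascular endothelial growth factor, had 6.22, 1.52 and 0.917 RPM in YH250 1, 2 and 3, against 3.76, 2.54 and 3.64 RPM in DMSO 1, 2 and 3. Flt4, the receptor of lymphatic and sinusoidal vessels, ranged from 0.25 to 3.56 RPM and was highest in YH250 1. The scavenger receptor genes differed from one another: Stab2, the hyaluronan receptor of sinusoids, had 7.15, 8.63 and 18.2 RPM in YH250 1, 2 and 3, against 4.68, 14.8 and 12.4 RPM in DMSO 1, 2 and 3, whereas Stab1, which macrophages also express, had 2.9, 4.73 and 1.68 RPM in YH250 1, 2 and 3, against 3.29, 0.736 and 2.03 RPM in DMSO 1, 2 and 3. Stab1 was highest in YH250 2 and Stab2 in YH250 3. Ly6h, a membrane protein of the Ly6 family, ranged from 0.0384 to 0.178 RPM.

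The gap between YH250 2 and the other libraries was then set against all genes. Members highest in YH250 2 numbered 16 of the 31 tested, against a background of 25.1% of tested genes, and 18 of the 36 with any read, against 25.3% of genes with any read. A low gene can pass the minimum mean through 1 high library, so the first count is not of all members. On the RPM + 1 scale, 8 of the 31 tested members were at least 2 times the highest of the other 5 libraries in YH250 2, as was the untested Ebf3, and 0 of the 38 were so in any of the other 5. These were Lepr (6.59), Cxcl12 (5.45), Sox17 (4.84), Ebf3 (4.47), Mgp (4.01), Plvap (3.93), Lpl (3.82), Pdgfra (3.49) and Dcn (2.65). Of all tested genes 2.37% passed in YH250 2, against 0.169% in YH250 1, 0.713% in YH250 3, 0.493% in DMSO 1, 0.235% in DMSO 2 and 0.412% in DMSO 3. Sox17, Mgp, Pdgfra and Dcn reached the minimum mean only with YH250 2. The filter itself thus raised both the 16 of 31 and the 8 of 31, so neither count is support for the gap. The shares of all tested genes rest on the same filter. At 4 times and 10 RPM, 18 genes passed in YH250 2 (0.208% of the 8660 at that level), among them the members Lepr and Cxcl12, and at 8 times 1 gene passed (0.0115%), no member among them. In YH250 3 and DMSO 3 such genes were 0.494% and 0.194% at 4 times and 0.345% and 0.171% at 8 times, mostly immunoglobulin genes in both libraries, and 0 were members. In YH250 1, DMSO 1 and DMSO 2 the share was 0%. YH250 2 is a single library, so these are descriptions with no test.

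**Figure D3:**
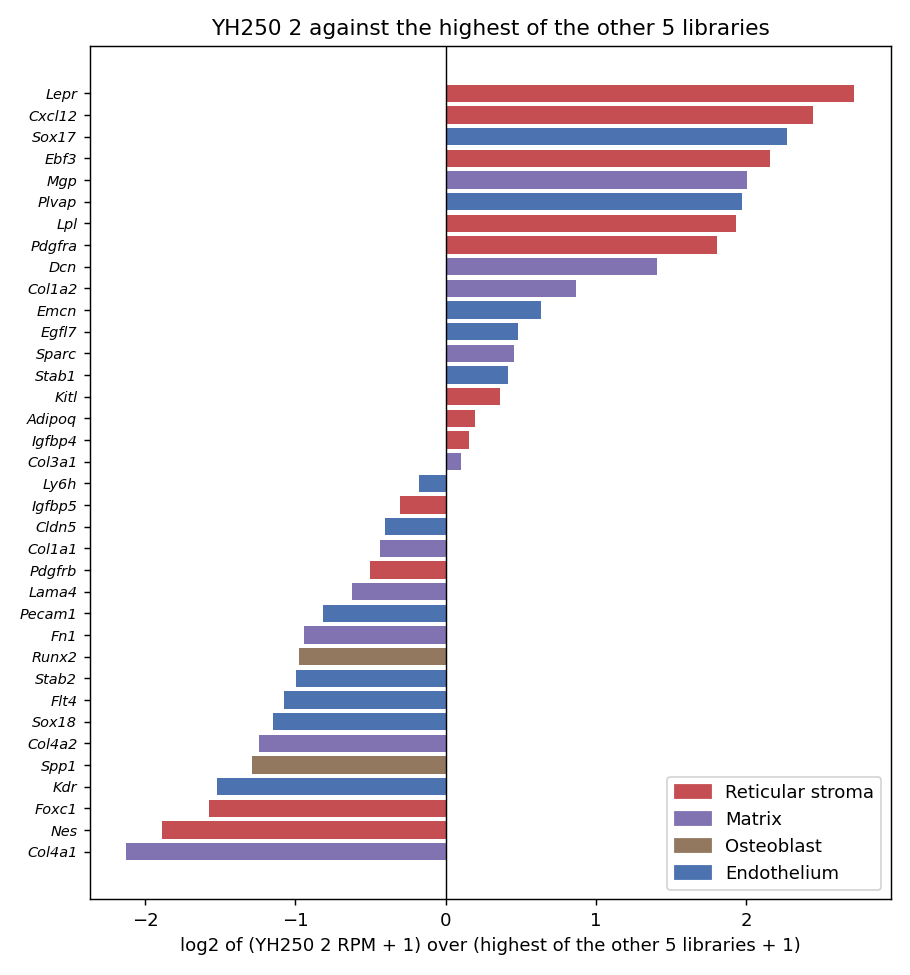
Log2 ratio of YH250 2 to the highest of the other 5 libraries, each with 1 RPM added, for the 36 members with any read, coloured by role. Bars right of 0 are the 18 members highest in YH250 2, with Lepr the longest, and Col4a1 is the lowest.

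The gene past 8 times was Adgre1, which encodes the macrophage antigen F4/80, at 11.4 RPM in YH250 2, against 0 to 0.455 RPM in the others. The 14 macrophage markers together summed to 336 RPM in YH250 2, against 173 to 261 RPM in the other 5 libraries, and 4 of the 14 were highest there, a share near the 25.3% of all genes with any read. Their defining complement genes C1qa, C1qb and C1qc were at 2.48, 3.84 and 6.24 RPM in YH250 2. C1qa and C1qc lay within the range of the other 5 libraries, and C1qb was below all of them (4.05 to 10.2 RPM). Csf1r, the receptor of the lineage, was at 0.0804 RPM in YH250 2, the lowest of all. The part of macrophage RNA in the levels of Stab1 or Spp1 was not tested.

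Further genes of the same cells, from lists that hold no member, gave a mixed picture. Of 30 other stromal genes, 19 were highest in YH250 2, against 25.3% of all genes with any read. Only 10 of the 19 reached the minimum mean for testing, and some of the rest were near 0, such as Ebf2 at 0.0697 RPM. Among the 19 were Serping1 (31.5 RPM, against 0.334 to 9.38 RPM in the other 5) and Pparg (12.8, against 0.844 to 3.05 RPM). Vcam1, also among the macrophage markers, was another (30.4, against 4.34 to 16.1 RPM). These 3 examples were chosen after their values were seen. The 4 most abundant of the list were Angpt1 (192 to 513 RPM), Fstl1 (7.39 to 53.0 RPM), Bgn (0.554 to 27.9 RPM) and Ebf1 (4.15 to 41.6 RPM), none of them highest there. Ebf1 is also a B cell marker and was highest in both libraries numbered 3. Of 30 other endothelial genes, 9 were highest in YH250 2, a share near the 25.3% of all genes with any read, and Lyve1 was listed at 0. Adgrl4 (263 to 499 RPM) and Icam2 (42.5 to 74.0 RPM) were highest there, whereas Erg (35.2 to 69.7 RPM) and Esam (6.67 to 105 RPM) were not. Of 10 other osteoblast genes, 4 were highest in YH250 2, against 25.3% of all genes with any read. They were led by the bone sialoprotein gene Ibsp at 44.8 RPM, against 1.38 to 16.5 RPM, while Sp7, which defines osteoblasts, was listed at 0. The abundant Mef2c (107 to 206 RPM), Col11a2 (0.667 to 6.96 RPM) and Col22a1 (1.17 to 3.02 RPM) completed the leading genes of that list. Which cells gave the Angpt1 and Mef2c reads was not tested.

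The 10 pericyte and smooth muscle markers were low, and 5 of them were highest in YH250 2, against 25.3% of all genes with any read. They summed to 15.8 RPM in YH250 2 and 2.33 to 11.2 RPM in the other 5 libraries. Acta2, Des, Rgs5 and Cspg4 stayed under 1 RPM in all 6. Abcc9 (0.737 to 8.82 RPM), Notch3 (0.208 to 6.72 RPM) and Kcnj8 (0 to 5.64 RPM), channel and receptor genes of pericytes, were the most abundant, followed by Tagln (0.111 to 1.03 RPM).

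Besides the gap at YH250 2, members varied with the replicate number. A limma F test over the 3 numbers, with treatment as a second term, was added after the data had been seen. It called 8 of the 31 tested members at an adjusted p under 0.05, against 7.84% of the 13597 tested genes. The members were Cxcl12 (adjusted p = 0.00534), Sparc (0.00866), Cldn5 (0.0135), Adipoq (0.02), Runx2 (0.0239), Igfbp5 (0.0273), Col4a2 (0.0307) and Col4a1 (0.0348). For Cxcl12, Sparc, Cldn5, Adipoq, Igfbp5 and Col4a2, both libraries numbered 3 lay below the other 4. Col4a1 was higher in both libraries numbered 1 than in the rest. Runx2 was higher in both numbered 3. In all, 11 tested members had both libraries numbered 3 below the other 4, against 14.3% of tested genes, and 3 (Pdgfrb, Pecam1 and Runx2) had both above, against 19.9%.

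**Figure D4:**
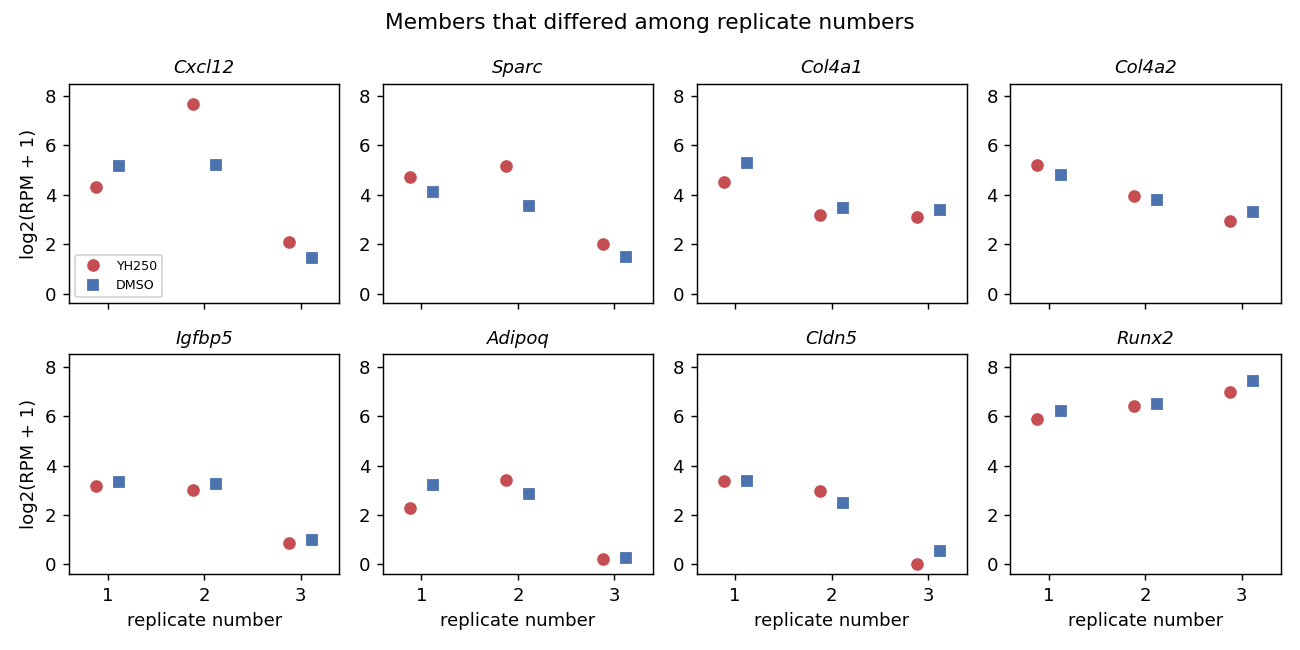
Level of the 8 members that differed among replicate numbers, as log2(RPM + 1) by number, with YH250 (red circles) left of DMSO (blue squares). Adipoq, Cldn5, Igfbp5, Cxcl12 and Sparc are lowest at number 3 in both treatments, and Runx2 is highest there.

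The call by number changed with the libraries included. Without YH250 3 and without DMSO 3 it held for 1 member each (Runx2 and Sparc), while without YH250 2 it held for 15 and without DMSO 2 for 25. With no minimum mean it held for 0 members and 61 genes, and with each library rescaled to the same sum over its genes Runx2 was no longer among those called. With 5 instead of 1 added to the RPM before taking log2, 7 members were called and Cxcl12 was not among them. Other cell markers moved along with the number: the 12 megakaryocyte markers summed to 70.6 RPM in YH250 3 and 107 RPM in DMSO 3, against 279 to 474 RPM in the other 4, with Gp6 at 0 in all. The 12 stem cell markers summed to 1059 and 1117 RPM in YH250 3 and DMSO 3, against 1307 to 1796 RPM. The same F test called 9 of 9 tested B cell, 9 of 12 stem cell and 5 of 11 megakaryocyte markers, against 7.84% of tested genes. It called 4 of 10 T and NK cell, 2 of 6 erythroid, 2 of 9 granulocyte and 1 of 11 macrophage markers. Of the tested stromal, endothelial, osteoblast and pericyte genes outside the members it called 4 of 16, 8 of 25, 0 of 6 and 0 of 3. The part of blood cells in the members' differences was not tested.

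Between treatments, no member was called. With limma on log2(RPM + 1), 0 of the 31 tested members passed at an adjusted p under 0.05 in either direction, against 0% of the 13597 tested genes. At an unadjusted p under 0.05 the count was 0 members, against 1.7% of tested genes (0.934% higher and 0.765% lower in YH250), and with the replicate number as a block it was 2 members (Plvap and Sparc), against 7.44%. For every tested member the 2 treatments overlapped, whereas 3.79% of tested genes had all YH250 libraries above all DMSO libraries and 3.68% below. Of the 31 members, 20 had a higher mean log2(RPM + 1) in YH250, against 51.7% of tested genes. With each library rescaled to the same sum over its genes 17 of 32 had one, against 41.7%. The median log2 difference of the 31 was 0.11, beside 0.02 over all tested genes. Pdgfra, Dcn, Mgp and Sox17, all with positive fitted differences, reached the minimum mean only with YH250 2. The filter itself thus raised the 20 of 31 and the median of 0.11, so neither is support for a difference between treatments.

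The 2 largest positive fitted differences, of Plvap and Lepr, belonged to genes with the gap at YH250 2. Plvap averaged 19.3 ± 22.7 RPM in YH250 and 2.58 ± 2.15 RPM in DMSO (SD, n = 3 each), a log2 difference of 1.90 ± 0.90 (SE; limma adjusted p = 0.999), and was higher in YH250 at all 3 numbers. Lepr averaged 20.3 ± 32.8 RPM in YH250 and 2.96 ± 4.38 RPM in DMSO (SD, n = 3 each), a log2 difference of 1.43 ± 1.38 (SE; limma adjusted p = 0.999). At numbers 1, 2 and 3 its log2 differences were -1.72, 5.01 and 0.99, so its sign depended on the number. Cxcl12 averaged 74.8 ± 111 RPM in YH250 and 24.2 ± 19.5 RPM in DMSO (SD, n = 3 each), a log2 difference of 0.76 ± 1.79 (SE; limma adjusted p = 0.999), and was lower in YH250 at number 1. Lpl averaged 25.4 ± 28.1 RPM in YH250 and 11.1 ± 0.509 RPM in DMSO (SD, n = 3 each), a log2 difference of 0.51 ± 0.72 (SE; limma adjusted p = 0.999), and Pdgfra had one of 0.58 ± 0.86 (SE; limma adjusted p = 0.999).

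Without YH250 2 the differences of Lepr, Cxcl12 and Lpl turned to -0.12, -0.72 and -0.38, and that of Plvap was 0.92. Over the members tested without that library the median was -0.11. Of these, 10 of 27 had a higher mean log2(RPM + 1) in YH250, against 52.2% of the genes tested without it. By role, the median log2 difference without YH250 2 was -0.43 for reticular stroma, against 0.01 with it, and 0.17 for endothelium, against 0.29 with it. These medians rest on different members: Pdgfra, Dcn, Mgp and Sox17 reached the minimum mean only with YH250 2, so a shift partly reflects which members were tested.

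Other members, without a gap of 2 times at YH250 2, were fitted as follows. Sparc averaged 21.1 ± 16.4 RPM in YH250 and 9.6 ± 7.34 RPM in DMSO (SD, n = 3 each), a log2 difference of 0.92 ± 0.95 (SE; limma adjusted p = 0.999), and was higher in YH250 at all 3 numbers. With the replicate number as a block its SE was 0.36 (limma adjusted p = 0.66). Egfl7 averaged 121 ± 32.1 RPM in YH250 and 95.6 ± 14.5 RPM in DMSO (SD, n = 3 each), with 0.31 ± 0.25 (SE; limma adjusted p = 0.999), and Emcn 39.0 ± 20.2 RPM in YH250 and 29.8 ± 8.35 RPM in DMSO (SD, n = 3 each), with 0.29 ± 0.38 (SE; limma adjusted p = 0.999). In the other direction, Foxc1 averaged 0.272 ± 0.354 RPM in YH250 and 2.17 ± 1.99 RPM in DMSO (SD, n = 3 each), with -1.08 ± 0.66 (SE; limma adjusted p = 0.999). Col4a1 had a log2 difference of -0.45 ± 0.60 (SE; limma adjusted p = 0.999), Fn1 one of -0.35 ± 0.40 (SE; limma adjusted p = 0.999) and Runx2 one of -0.28 ± 0.38 (SE; limma adjusted p = 0.999). None of them passed the threshold, and a p that misses the threshold does not show that it stayed equal.

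**Figure D5:**
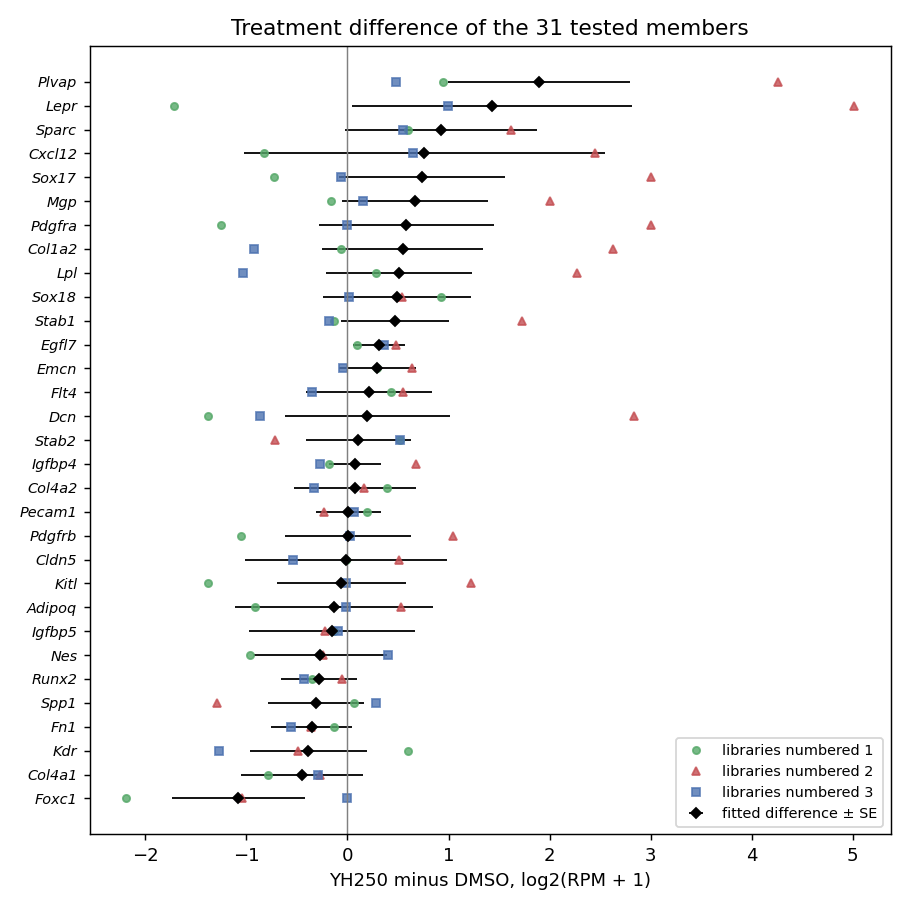
Fitted log2 difference of YH250 minus DMSO for the 31 tested members (black diamonds, bars ± 1 SE, n = 3 per treatment), with the difference at each replicate number in colour. The red triangles of number 2 lie far to the right for Lepr (5.01) and Plvap (4.26), and the members range from -1.08 (Foxc1) to 1.90 (Plvap).

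None of the other lists had a called gene either. In the 16 tested stromal, 25 endothelial, 6 osteoblast and 3 pericyte genes outside the members, 0 passed in either direction, with median log2 differences of 0.26, 0.14, -0.22 and 0.58. Without YH250 2, over those of these genes that still reached the minimum mean, the stromal median was -0.20 and the pericyte median -0.40. Kcnj8 no longer reached that mean, so the pericyte median then rests on Notch3 and Abcc9 alone. The erythroid, granulocyte and T and NK cell markers summed to 199.8, 343 and 218 RPM in YH250 2, against 33.5 to 342, 187 to 544 and 65.4 to 541 RPM in the other 5 libraries. The sort marker Kit, which encodes c-Kit, was at 160.1 RPM in YH250 2, against 129.6 to 318 RPM in the other 5 libraries. Ly6a, which encodes Sca1, was at 208 RPM in YH250 2. Slamf1, which encodes CD150, was at 3.92 RPM there, against 0.515 to 35.5 RPM in the other 5 libraries. Of the 12 stem cell markers, 0 were highest in YH250 2, against 25.3% of all genes with any read.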

How the data were processed

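The authors deposited 1 table with a normalized signal for each gene in each library. Per the labels' protocols, amplified cDNA was sonicated, made into libraries and sequenced as single ends of 50 bases. Tools and build listed in the submitters' notes were CASAVA 1.8.2, TopHat2 2.0.8, Partek and mm10. What each did, the annotation used for genes and whether strand was used are not given in the sources used here. No source names the unit, which was read from the values. Every column starts at 1, and what lies above 1 clusters near multiples of a fixed step, with 60.9% to 68.4% of values up to 20 steps within 0.1 of a whole one. The signal was therefore taken as RPM plus an offset of 1. Because many low values were not whole, reads were not rebuilt and models for counts were left aside. Summed over genes, a library held 699979 to 959240 RPM. GENCODE M21, whose GRCm38 coordinates match those of mm10, supplied positions and exon lengths and named 40254 of the 41128 IDs.

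The 13597 genes averaging 1 RPM or more were fitted as log2(RPM + 1) with limma 3.58.1 in R 4.3.3 (lmFit, eBayes with trend and robust), YH250 minus DMSO, 3 libraries each. Benjamini-Hochberg adjustment ran over all of them, and the scripts were tested on simulated data. The simulation used large planted changes and less noise than many genes had here. It therefore does not show which changes in these members could have been found. Adding 1 shrinks the fitted differences of low genes. The labels do not say that libraries came from separate animals, so p-values measure only the spread between these libraries, which may be technical. To see whether replicate numbers pair libraries, deviations from the group means were correlated over tested genes. Same-numbered libraries gave 0.551, 0.256 and 0.696 for numbers 1, 2 and 3, all above 0.1, so the fit with number as a block is given where it changes a count. Of the differently numbered pairs, YH250 1 with DMSO 2 (0.144) and YH250 2 with DMSO 1 (0.109) also passed 0.1. The remaining pairs were negative, from -0.551 to -0.265. The limit alone thus did not set same-numbered pairs apart, and the pairing was weakest for number 2. Members and lists were chosen with earlier results of these data known. By rule, all members were accounted for, and the genes named from other lists were the 4 most abundant of each stromal, endothelial, osteoblast and pericyte list and the 3 most abundant of each blood list, except 1 that is not reported here. Names outside that rule are said to be chosen after their values were seen, or are the defining and sort markers.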

Additional observations from a re-analysis of the deposited data

How the results depend on the processing

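No gene and no member was called between treatments under any of the 18 alternatives, the replicate block among them (0 genes and 0 members; unadjusted p under 0.05 for 231 genes without and 1012 with the block). Of the 12 members whose difference is given, 11 of 209 alternative values had the opposite sign and none was called. For Lepr, Cxcl12, Lpl and Emcn the value without YH250 2 was -0.12, -0.72, -0.38 and -0.088. Without both libraries numbered 2 it was -0.36 for Lepr, -0.084 for Cxcl12 and -0.37 for Lpl, and with array weights it was -0.37 for Cxcl12. Without DMSO 3, Cxcl12 had -0.49 and Runx2 0.071, and without DMSO 1, Col4a1 had 0.18. Leaving out 1 library gave -0.12 to 2.33 for Lepr, -0.72 to 2.06 for Cxcl12, -0.38 to 1.31 for Lpl, -0.09 to 0.60 for Emcn, -0.56 to 0.07 for Runx2 and -0.91 to 0.18 for Col4a1. With 1 library left out, the median over tested members ranged from -0.11 without YH250 2 to 0.63 without YH250 3. Rescaling to the sum over genes moved the median of all genes to -0.07, against 0.02.

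Genes that differed among replicate numbers were 1066, but 61 with no minimum mean and 2117 with array weights, and 420 to 4589 with 1 library left out; members were 8, 0 with no minimum mean, and 1 to 25. Genes far higher in YH250 2 were 1 at 8 times, 18 at 4 times (2 of them members) and 0 at 16 times or at a minimum of 20 RPM. Apart from the left-out libraries, the causes were not tested. With about 22.0 reads at 1 RPM in the shallowest library, members under 1 RPM rest on few reads.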

Other observations

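The other genes at 10 RPM or more and at least 4 times higher in YH250 2 than in any other library were looked through after their values were seen. They included Rgs4, a regulator of G protein signalling (22.2 RPM, against at most 2.85 RPM in the other 5 libraries), Sfrp4, a secreted inhibitor of Wnt ligands (15.5, against at most 2.61 RPM), Snai2, a transcription factor of mesenchymal cells (11.4, against at most 1.78 RPM), and Fzd5, a Wnt receptor (14.3, against at most 2.69 RPM). The remaining genes of that list were Oprl1, Tpcn2, Ugt8a, Cyp4b1, Rps6ka6, Amy1, Ppp1r3d, Zfp41, Zfp473, Dnajb5 and Slc25a25. Of these, Oprl1, Tpcn2, Ugt8a, Cyp4b1, Rps6ka6 and Amy1 had larger ratios than Sfrp4, Snai2 and Fzd5. The genes described were thus a selection, and whether the list shares a role was not tested. The same threshold was met by 43 genes in YH250 3 and 17 in DMSO 3, and by 0 in YH250 1, DMSO 1 and DMSO 2.

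Abundant markers of each blood list held the following levels over the 6 libraries. Among macrophage markers, Lyz2, Cd68 and Spic held 101 to 236 RPM, 8.86 to 29.2 RPM and 7.08 to 20.5 RPM. The erythroid Hbb-bt, Car1 and Klf1 held 23.1 to 199 RPM, 0.283 to 123 RPM and 0.876 to 12.6 RPM. The granulocyte enzymes Prtn3, Mpo and Elane held 175 to 264 RPM, 0.81 to 223 RPM and 0.221 to 63.3 RPM. The megakaryocyte Pf4 and Itga2b held 4.84 to 47.4 RPM and 5.65 to 43.7 RPM. The B cell Cd79b, Cd79a and Ms4a1 held 44.2 to 312 RPM, 6.18 to 229 RPM and 6.23 to 125 RPM. The T and NK cell Nkg7, Lck and Trbc2 held 39.8 to 339.6 RPM, 16.7 to 63.1 RPM and 4.33 to 47.0 RPM. The stem cell Cd34, Hlf and Kit held 158 to 505 RPM, 114 to 465 RPM and 129.6 to 318 RPM. Of each blood list, 0 genes were called between YH250 and DMSO.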
